A study of Mus musculus with 18 samples.

Results

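Apilimod was compared with its analog API09 in R848-stimulated RAW cells, and the genes described are those whose difference between the compounds kept its sign from 3 h to 22 h and those whose difference changed sign. The comparison rests on 6 of the 18 arrays of the series: R848+apilimod and R848+API09 at 3, 7 and 22 h, paired by hour (3 pairs). The pair at 1 h was left out of it by the choice of hours. RAW is a mouse macrophage-like cell line, kept in standard culture. R848 is an imidazoquinoline agonist of Toll-like receptor 7. All 6 arrays carry the same R848 stimulus, which the labels give as 0.1 mM (a dose so high that the unit may be wrong). Each compound was given at 1 uM. Each arm had 1 array at each hour. Nothing in the labels says whether the arrays are from separate cultures, so p-values reflect only how these arrays vary, and part of that may be technical. Of the 18193 genes with 1 symbol on the arrays, 12257 passed the filter on low intensity and were tested.

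Apilimod inhibits PIKfyve, the lipid kinase that makes phosphatidylinositol 3,5-bisphosphate on endosomes and lysosomes, and it first became known for lowering the output of IL-12 and IL-23. Loss of PIKfyve activity swells endolysosomes into large vacuoles. Lysosome stress is known to move the transcription factors TFEB, TFE3 and MITF to the nucleus, where they act on genes of the lysosome, its proton pump and autophagy. Apilimod has a pyrimidine core that carries a morpholine, an aryl hydrazone and a pyridylethoxy chain. API09 is known here by its code name and, from the series design, as the inactive analog, so the structural difference between the compounds is not described.

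Differences are given as apilimod minus API09 on the scale of log2(intensity + 16), with the standard error of limma's fit within the hour. A value of 1 on this scale is a doubling for a bright gene, and the added 16 understates the change of dim ones. A gene was called at an hour when its adjusted p was under 0.05 (limma, two-sided, Benjamini-Hochberg over all genes and the 3 hours together). The spread in these fits comes from the R848 and R848+API09 arrays of the other hours and from 2 medium arrays at 0 h, and the lone arrays compared are assumed to vary like those. At 22 h API09 and R848 lay further apart (SD over genes 0.222, median -0.119) than at 1, 3 and 7 h (SD 0.111 to 0.132). That gap does not enter the spread at 22 h. Standard errors there (median 0.094, against 0.132 at 3 h and 0.128 at 7 h) may thus be too small, and the calls at 22 h too many. Genes called with the same sign at 3, 7 and 22 h are termed held below, and genes called higher at one hour and lower at another are termed turned.

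The arrays were alike in median intensity (17.5 to 19.2 over all 18), but the R848+API09 array at 22 h stood apart. Its upper quartile was 87.0, against 100.9 on the R848+apilimod array of that hour, 103.6 on the R848 array and 110.5 to 118.6 on the other arrays. The mean log2(intensity + 16) of 3 probe sets for 18S ribosomal RNA was highest on the R848+API09 arrays at 22 h (10.55) and 7 h (10.18), against 8.11 to 9.51 on the other 16 arrays, and its part in the differences at those hours was not tested. Of 12 macrophage markers, 10 were above the filter level (18.1) on all 6 arrays, and Mertk was above it on none. The summed intensity of the macrophage markers was 37795 to 44338 on the apilimod arrays and 38978 to 45102 on the API09 arrays. Single macrophage markers did differ, 6 of the 11 tested being lower with apilimod at 7 h (54.5%, against 8.1% of all genes). T cell markers summed to 104 to 131 and 114 to 156 in the same order; of 5 measured, Cd3e, Cd4 and Cd8a were above the filter on all 6 arrays (18.4 to 58.9) and Cd3g on none. B cell markers summed to 488 to 682 and 494 to 680; of 5 measured, Ighm (419 to 623) and Pax5 were above it on all 6, and Cd79b and Ms4a1 on none. Markers of fibroblasts and epithelium summed to 137 to 160 and 131 to 165; of 8, Dcn, Epcam and Krt8 were above it on all 6 (20.8 to 61.0), and Col1a1, Col1a2, Pdgfra, Krt18 and Cdh1 on none. The part of these markers in the differences was not tested. Transcript levels of a culture do not tell fewer expressing cells from less RNA per cell.

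The compounds differed widely from 3 h on. At 3 h 1079 of 12257 genes were called (8.8%), 614 higher with apilimod (5.01%) and 465 lower (3.79%). At 7 h 2083 were called (17%), 1090 higher (8.89%) and 993 lower (8.1%). At 22 h 5135 were called (41.9%), 3396 higher (27.7%) and 1739 lower (14.2%). This split was 2663 higher and 2804 lower after quantile normalization and 2227 and 3239 after centring. The R848+API09 array that stood apart is 1 of the 2 arrays compared at 22 h and does not enter the spread there, while it does at 3 and 7 h. With it left out of the spread, 1903 genes were called at 3 h and 3385 at 7 h. With R848 and R848+API09 both as controls, so that their difference at 22 h enters the spread, 3768 genes were called at 22 h. Genes that differed by at least 1 numbered 264, 565 and 689 at 3, 7 and 22 h, a count that does not use the spread. At 1 h no gene was called by limma (smallest adjusted p = 0.15, with 200 genes at an unadjusted p under 0.05), and 1 gene differed by at least 1.

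API09 lay close to R848 alone. The SD over genes of API09 minus R848 was 0.111 at 3 h, 0.132 at 7 h and 0.222 at 22 h, against 0.334, 0.471 and 0.520 for apilimod minus API09. API09 and R848 differed by at least 1 in 0, 1 and 6 genes at those hours. At 1 h the SD was 0.116 for API09 minus R848 and 0.112 for apilimod minus API09.

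Of the 12257 genes, 4484 (36.6%) had a difference of the same sign at all 3 hours, 2225 of them positive and 2259 negative (1947 and 2733 after quantile normalization, 1811 and 2881 after centring of each array on its median), and 7773 (63.4%) changed sign at least once. Among the 93 genes that differed by at least 1 at every hour, 86 kept the sign, 65 higher and 21 lower with apilimod. The other 7 were Il10, Hmgcs1, Ccr1, Lpcat1, Ifit1, Hspa1b and Cxcl10. In all, 548 genes were called at every hour, of which 468 in 1 direction and 80 in both. Held genes were 326 higher (2.66%) and 142 lower (1.16%), and 267 genes turned (2.18%), 102 of them higher first (0.832%) and 165 lower first (1.35%). The change of the difference between hours was tested in its own right. From 3 h to 7 h it was called in 593 genes (4.84%), 275 up (2.24%) and 318 down (2.59%). From 3 h to 22 h it was called in 3972 (32.4%), 2679 up (21.9%) and 1293 down (10.5%), and from 7 h to 22 h in 4063 (33.1%), 2733 up (22.3%) and 1330 down (10.9%). The split was 2069 up and 1974 down from 3 h to 22 h and 2122 and 1966 from 7 h to 22 h after quantile normalization, and 1606 and 2191, and 1658 and 2243, after centring. All 267 turned genes had a called change between the hours of opposite call, which 2 called differences of opposite sign all but ensure.

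**Figure D1:**
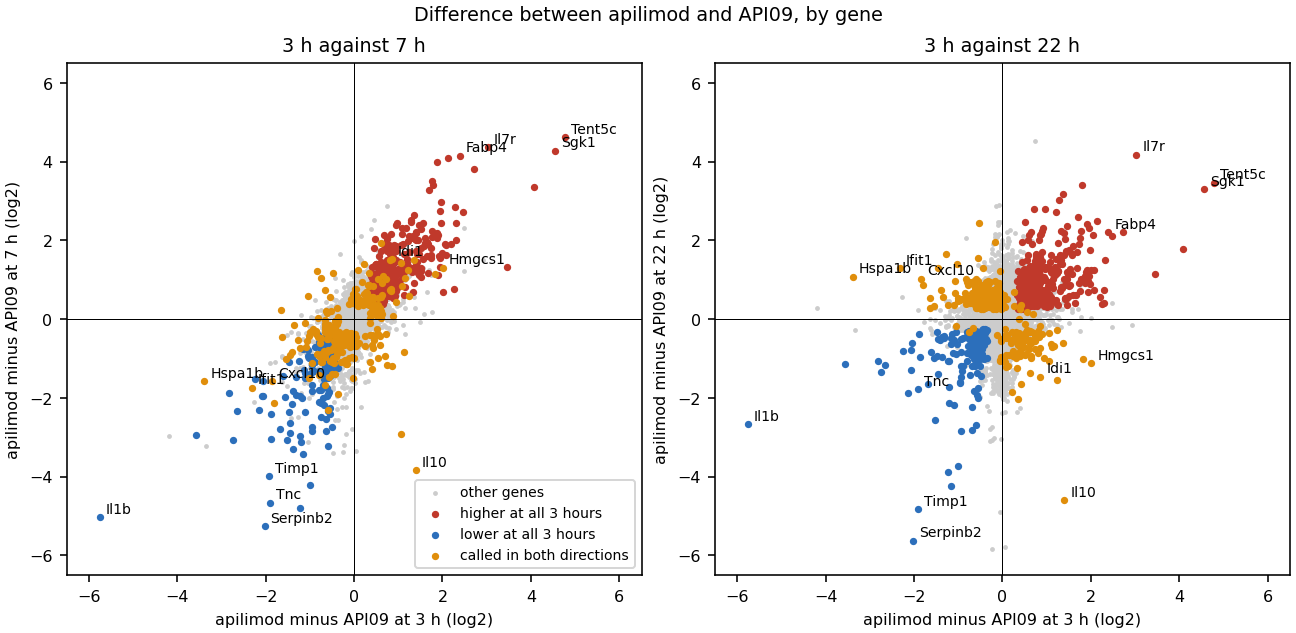
Difference between apilimod and API09 for each of 12257 genes (log2 scale, 1 array per arm and hour), at 3 h on the horizontal axes and at 7 h or 22 h on the vertical axes. Red marks the 326 genes held higher, blue the 142 held lower and orange the 267 called in both directions; Il1b lies at -5.75 at 3 h and Il10 moves from 1.40 at 3 h to -4.59 at 22 h.

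Held differences were often largest at 7 h. Their median was 0.80 at 3 h, 1.17 at 7 h and 0.86 at 22 h in genes held higher, and -0.68, -1.31 and -0.77 in genes held lower. The difference was largest in size at 7 h in 194 of the 326 and in 94 of the 142. No change between any pair of hours was called in 132 of the genes held higher and 42 of those held lower. The difference at 1 h did not enter the choice, although the R848 and R848+API09 arrays of 1 h supplied part of the spread. At 1 h 190 of the 326 were above 0 (58.3%, against 53.5% of all genes tested). Of the 142 held lower, 69 were above 0 (48.6%, against the same 53.5%) and 73 below. At the edge of the class, Vezf1 (largest adjusted p 0.0499, limma) and Anp32a (0.0489) were just inside, and Extl3 and Tsc1 (0.0505 each) just outside.

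The genes held higher with the widest margin encode a mix of enzymes, receptors and lipid-binding proteins. Tent5c, a cytoplasmic poly(A) polymerase, read 817, 631 and 292 with apilimod at 3, 7 and 22 h and 14.5, 10.2 and 11.9 with API09. The API09 arrays lay under the filter level at every hour, and the arms did not overlap. The probe set of Tent5c passed the filter only with its apilimod arrays counted. Genes named for the widest margin, here and among those held lower, were picked by their differences on these 6 arrays. Arms that do not overlap follow largely from that choice. The difference in Tent5c was 4.77 ± 0.17, 4.63 ± 0.16 and 3.47 ± 0.15 (limma, largest adjusted p = 7.14e-07). Sgk1, a serum- and glucocorticoid-regulated kinase, read 758, 941 and 323 against 17.1, 33.3 and 18.2, a difference of 4.55 ± 0.15, 4.28 ± 0.15 and 3.31 ± 0.09. Il7r, the interleukin-7 receptor alpha chain, read 1329.7, 1808 and 1088 against 149.5, 72.3 and 44.7, a difference of 3.02 ± 0.27, 4.37 ± 0.26 and 4.18 ± 0.12. In both genes every apilimod array was above every API09 array.

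Plk2, a polo-like kinase, read 2825, 4404 and 2976 with apilimod and 415, 298 and 630.4 with API09 (2.72 ± 0.13, 3.82 ± 0.13 and 2.21 ± 0.11). Ccrl2, an atypical receptor that binds chemerin, read 1368, 2272 and 608 and 300.5, 117 and 95.6 (2.13 ± 0.15, 4.11 ± 0.15 and 2.48 ± 0.14). Their largest differences were at 7 h, and again the arms did not overlap. F10, coagulation factor X, read 541, 1433 and 327 and 84.7, 201 and 63.2 (2.47 ± 0.19, 2.74 ± 0.18 and 2.11 ± 0.14). Both arms peaked at 7 h, and the difference changed by -0.62 ± 0.18 from 7 h to 22 h (limma, adjusted p = 0.0356). Slc6a8, the creatine transporter, read 1328, 1592 and 1114 and 332, 221 and 213 (1.95 ± 0.12, 2.76 ± 0.12 and 2.31 ± 0.09).

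Fatty acid binding and lipid droplet genes were among them. Fabp4, a fatty acid carrier of macrophages and fat cells, read 709, 2158 and 1334 with apilimod and 122, 106 and 276 with API09 (2.39 ± 0.17, 4.16 ± 0.20 and 2.21 ± 0.17). Fabp3 differed by 1.79 ± 0.17, 3.41 ± 0.17 and 3.41 ± 0.15, although only 1 of its 2 kept probe sets had the called sign at every called hour. Hilpda, an inhibitor of lipolysis on lipid droplets, read 888, 1601 and 1211 and 202, 414 and 260.5 (2.05 ± 0.13, 1.91 ± 0.11 and 2.15 ± 0.10), nearly the same difference at each hour. Of 8 measured genes of lipid binding, uptake and storage, 3 were held higher, against 2.66% of all genes. These were Fabp3, Fabp4 and the droplet coat gene Plin2 (0.87, 1.24 and 0.64). At 3, 7 and 22 h 4, 4 and 3 of the 8 were higher (50%, 50% and 37.5%, against 5.01%, 8.89% and 27.7% of all genes). At those hours 0, 2 and 2 were lower (0%, 25% and 25%, against 3.79%, 8.1% and 14.2%). The difference of 3 of the 8 was below 0 at every hour. The carrier Fabp5 was called at 3 h (0.82 ± 0.12) and 7 h (1.30 ± 0.11) but not at 22 h (0.05 ± 0.07, 95% interval -0.12 to 0.21). Lhfpl2 differed by 4.07 ± 0.12, 3.36 ± 0.12 and 1.78 ± 0.10, with 3 of its 4 probe sets of the called sign, and the glycolytic enzyme gene Eno2 by 1.77 ± 0.22, 3.52 ± 0.14 and 2.25 ± 0.23.

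The genes held lower were led by Il1b, the interleukin-1 beta gene. It read 150.0, 343 and 393 with apilimod and 8932, 11679 and 2599 with API09. Every apilimod array was below every API09 array, and the difference shrank from -5.75 ± 0.20 at 3 h to -2.68 ± 0.19 at 22 h (limma, largest adjusted p = 9.09e-06). Medium alone gave 43.5, 32.7 and 26.9, so the apilimod arrays lay above unstimulated cells.

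Genes of the plasminogen system and of the matrix followed. Serpinb2, plasminogen activator inhibitor 2, read 18.2, 15.0 and 7.70 with apilimod and 123, 1178 and 1158 with API09 (-2.02 ± 0.20, -5.27 ± 0.19 and -5.63 ± 0.11). Timp1, an inhibitor of metalloproteinases, read 22.2, 21.2 and 16.2 and 128, 574 and 899 (-1.91 ± 0.22, -3.99 ± 0.22 and -4.83 ± 0.15). In both the API09 arm climbed between 3 h and 7 h while the apilimod arm stayed dim, and medium read 5.18, 7.20 and 8.17 for Serpinb2 and 19.0, 21.6 and 24.3 for Timp1. Tnc, the matrix protein tenascin C, read 37.7, 23.3 and 39.9 and 184, 977 and 176 (-1.90 ± 0.16, -4.66 ± 0.15 and -1.78 ± 0.13), and the gelatinase gene Mmp9 read 13.1, 13.0 and 17.8 and 51.3, 210.4 and 132 (-1.21 ± 0.25, -2.97 ± 0.25 and -2.13 ± 0.13). Of 10 measured genes of this list, these 4 were held lower (against 1.16% of all genes) and 2 held higher (against 2.66%). The 2 were Plau (1.60, 2.06 and 1.85), which encodes the plasminogen activator urokinase, and the matrix protease gene Adamts1 (1.39, 1.73 and 1.03). At 3, 7 and 22 h 2, 3 and 3 of the 10 were higher (20%, 30% and 30%, against 5.01%, 8.89% and 27.7% of all genes). At those hours 5, 4 and 4 were lower (50%, 40% and 40%, against 3.79%, 8.1% and 14.2%).

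Phlda1, a pleckstrin-homology-like protein, read 219.7, 251 and 158 with apilimod and 1021, 1303 and 627 with API09. Its difference was -2.14 ± 0.11, -2.31 ± 0.10 and -1.89 ± 0.08, with a change of 0.42 ± 0.10 from 7 h to 22 h (limma, adjusted p = 0.02). Maf, a transcription factor of macrophages, read 13.1, 22.2 and 21.8 and 52.0, 1055 and 543 (-1.23 ± 0.17, -4.81 ± 0.14 and -3.89 ± 0.16), so its climb between 3 h and 7 h with API09 had no match with apilimod. Fnbp1l, an F-BAR protein that links membranes to actin assembly, differed by -1.67 ± 0.11, -2.80 ± 0.10 and -1.64 ± 0.08, Glrx, glutaredoxin, by -1.46 ± 0.14, -2.88 ± 0.14 and -1.39 ± 0.08, and Shisa3 by -2.07 ± 0.19, -1.96 ± 0.20 and -1.30 ± 0.18.

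**Figure D2:**
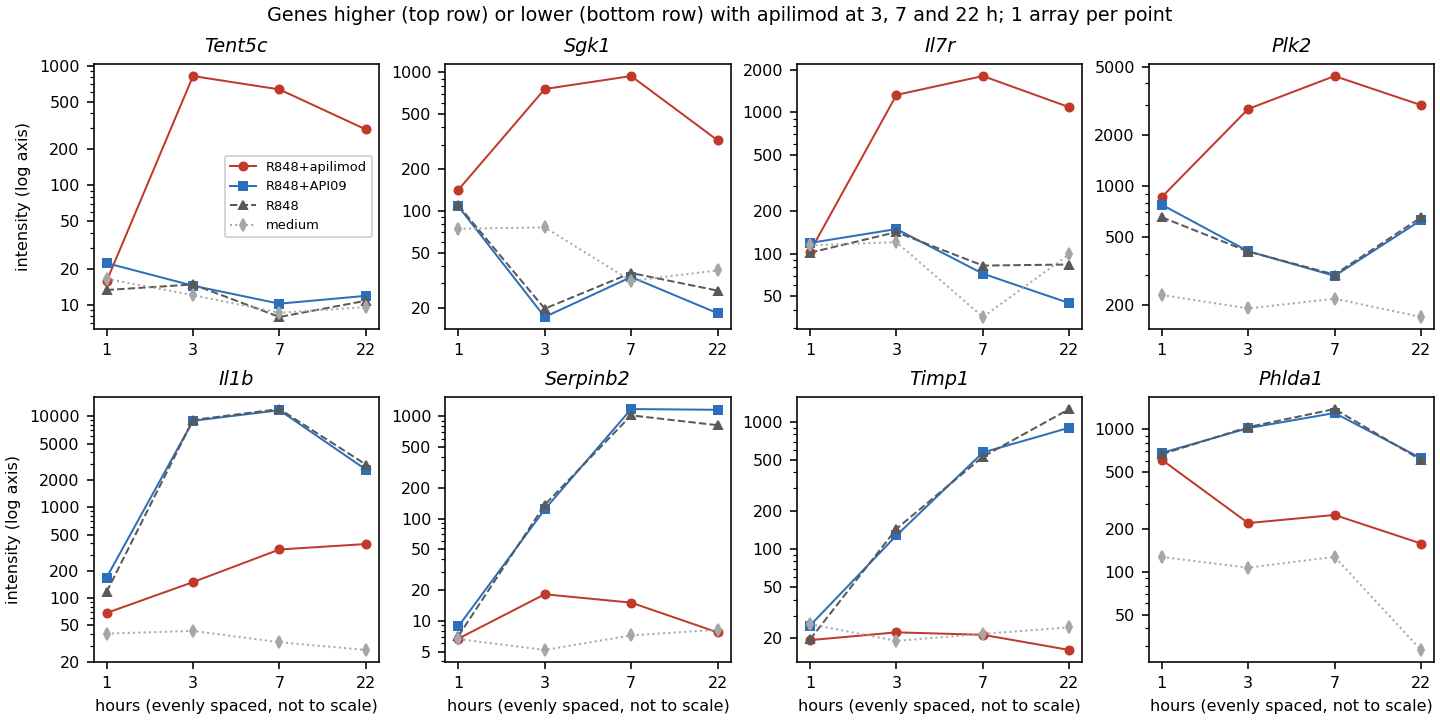
Intensity (log axes) of 4 genes held higher (top) and 4 held lower (bottom) with apilimod against hours, 1 array per point, in R848+apilimod (red), R848+API09 (blue), R848 (dark grey, dashed) and medium (light grey, dotted). At 3, 7 and 22 h API09 tracks R848 alone and apilimod lies apart from both; Tent5c reads 817 with apilimod and 14.5 with API09 at 3 h, and Timp1 16.2 and 899 at 22 h.

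A fit over the 3 pairs with hour as a block asks for a difference that was also of like size at each hour. It called 22 genes (0.179%), 21 higher (0.171%) and 1 lower (0.00816%), with 1527 at an unadjusted p under 0.05, and all 22 were held genes. The largest were Tent5c (4.29 ± 0.28), Sgk1 (4.05 ± 0.26), Il7r (3.86 ± 0.29), F10 (2.44 ± 0.15) and Slc6a8 (2.34 ± 0.18), and Phlda1 (-2.11 ± 0.12) was the 1 lower gene. Their adjusted p ran from 0.0432 to 0.0476 (limma, Benjamini-Hochberg), close to the threshold. The count was 0 without the 7 h pair, 51 without the 3 h pair and 163 without the 22 h pair, and it was 0 with R848 alone in the place of API09. An exact test by sign flips over 3 pairs cannot go below p = 0.25, so no such test is given for single genes.

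Called genes of the lysosomal lists were nearly all higher with apilimod. Of 15 measured subunits of the vacuolar ATPase, the proton pump that acidifies lysosomes, 7 were higher at 3 h (46.7%, against 5.01% of all genes). At 7 h and at 22 h 14 were higher (93.3% each, against 8.89% and 27.7%). No subunit was lower at any of these hours. The difference of all 15 was above 0 at every hour, and their median was 0.37, 0.63 and 0.71 against -0.03, -0.02 and 0.06 over all genes tested. Atp6v1a read 3247, 4455 and 4544 with apilimod and 1872, 1917 and 2737 with API09 (0.79 ± 0.11, 1.21 ± 0.11 and 0.73 ± 0.08), Atp6v1c1 differed by 0.67 ± 0.10, 1.22 ± 0.10 and 1.05 ± 0.08 and Atp6v1d by 0.93 ± 0.11, 1.51 ± 0.11 and 1.06 ± 0.08. The isoform gene Atp6v0d2 read 363, 1173 and 2351 and 210.2, 147 and 86.6. Its difference grew from 0.74 ± 0.24 at 3 h (not called, adjusted p = 0.055, limma) to 2.87 ± 0.24 and 4.53 ± 0.13, so it is not among the 7 subunits that were held.

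Of 31 measured lysosomal hydrolases and membrane proteins, 8, 19 and 24 were higher at 3, 7 and 22 h (25.8%, 61.3% and 77.4%, against 5.01%, 8.89% and 27.7% of all genes), and 0, 0 and 2 lower. The 7 held higher were Gpnmb, Ctsb, Ctsk, Gla, Psap, Npc1 and Clcn7. Gpnmb, a glycoprotein of lysosomes and a known target of MITF and its relatives, read 10691, 14852 and 16672 with apilimod and 4376, 2559 and 2018 with API09. The apilimod arm climbed and the API09 arm declined with time, and the difference went from 1.29 ± 0.12 to 3.04 ± 0.10. Ctsk, a cathepsin protease, read 2554, 5202 and 5128 and 1302, 945 and 728 (0.96 ± 0.15, 2.44 ± 0.16 and 2.79 ± 0.11). Gla, the alpha-galactosidase, differed by 1.30 ± 0.10, 2.47 ± 0.10 and 1.63 ± 0.08 and the chloride transporter gene Clcn7 by 1.33 ± 0.14, 2.07 ± 0.14 and 1.50 ± 0.08, the latter with 2 of 3 probe sets of the called sign. Of 19 autophagy genes 4, 7 and 13 were higher (21.1%, 36.8% and 68.4%, against the same shares) and none lower, but with R848 alone as control 7 were higher at 22 h. The cargo receptor genes Sqstm1 (0.49 ± 0.13, 1.40 ± 0.12 and 1.20 ± 0.09) and Nbr1 (0.67 ± 0.11, 0.46 ± 0.12 and 0.96 ± 0.09) and the conjugation gene Atg12 (0.60 ± 0.12, 0.80 ± 0.13 and 1.10 ± 0.10) were held higher. The counts at 22 h for these 3 lists were 13 or 14 of 15, 22 to 24 of 31 and 7 to 13 of 19 over the deposited values, the 2 other scalings and the 2 other choices of control.

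Folliculin and its partners, which act with the Rag GTPases at the lysosome surface to control TFEB and TFE3, were measured by 13 genes. Fnip2, a folliculin partner, read 2866, 2098 and 1016 with apilimod and 248, 830.2 and 448 with API09 (3.45 ± 0.13, 1.32 ± 0.10 and 1.15 ± 0.11), the largest difference of the list at 3 h. Flcn itself (1.12, 1.04 and 0.47) and Rragc (1.00 ± 0.11, 1.27 ± 0.11 and 0.77 ± 0.08) were held higher too. Fnip1 was higher at 3 h (1.70 ± 0.13) and 7 h (1.25 ± 0.14) and not called at 22 h (0.25 ± 0.12, 95% interval -0.02 to 0.53). The factors themselves were not held. Mitf read 451, 184 and 446 with apilimod and 1135, 495 and 451 with API09, lower at 3 h (-1.30 ± 0.11) and 7 h (-1.36 ± 0.10) and not called at 22 h (-0.01 ± 0.07, 95% interval -0.18 to 0.15). Tfe3 was lower at 3 h (-0.48 ± 0.13), and Tfeb was called at no hour (0.32 ± 0.11, -0.04 ± 0.10 and 0.05 ± 0.08).

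The transcript of apilimod's target differed by 0.60 at most. Pikfyve read 122, 162 and 90.5 with apilimod and 74.8, 109.7 and 61.7 with API09, higher at 3 h (0.60 ± 0.19, adjusted p = 0.0436, limma) and 22 h (0.46 ± 0.11, adjusted p = 0.0163) and not called at 7 h (0.50 ± 0.18, adjusted p = 0.0704). Its scaffold Vac14 (0.06 ± 0.15, 0.32 ± 0.14 and 0.65 ± 0.08) and the phosphatase Fig4 of the same complex (-0.04 ± 0.12, 0.10 ± 0.12 and 0.33 ± 0.08) were called at 22 h alone. None of the 11 measured genes of the complex and related phosphoinositide enzymes was held, and Mtm1, a phosphatase of the same lipids, was lower at 22 h (-1.48 ± 0.16).

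RefSeq promoter sequence (250 bases before to 50 after the start site, GRCm38.p6) was matched for 260 of the 326 genes held higher, 112 of the 142 held lower and 9933 of the 12257 tested, with 355, 147 and 12657 promoters, since some genes have several start sites. The 8-letter motif TCACGTGA, the core of the CLEAR element to which TFEB and its relatives are known to bind, was searched on both strands. It stood in 4.23% of the promoters of genes held higher, 0.68% of those held lower and 1.73% of those of all genes tested. The shorter E-box CACGTG, which the longer motif contains, stood in 14.1%, 7.48% and 9.54%. Among the 12 matched genes that were held higher and belong to the lists of the pump, the lysosome and folliculin, 5 had the E-box: Atp6v0d1, Atp6v1a, Clcn7, Gla and Rragc. Stretches of 4 of these promoters are shown because they carry the E-box in genes whose difference held for all 3 hours, with the E-box in capitals and each read 5′ to 3′ on the strand of the gene. A match of letters is a description and not evidence of binding.
Atp6v1a: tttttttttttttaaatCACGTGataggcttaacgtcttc
Clcn7: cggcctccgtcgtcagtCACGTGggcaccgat
Gla: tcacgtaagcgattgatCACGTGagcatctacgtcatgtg
Rragc: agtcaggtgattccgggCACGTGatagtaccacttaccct
They lie at chr16:44139368-44139407 (minus strand, Atp6v1a), chr17:25133359-25133390 (plus strand, Clcn7), chrX:134601210-134601249 (minus strand, Gla) and chr4:123917304-123917343 (plus strand, Rragc). Gla has another E-box nearer its start site.

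Of the sterol synthesis genes, most were higher with apilimod at 3 and 7 h and 7 of 18 turned. These genes are activated by SREBP-2 when sterol in the endoplasmic reticulum is low. Of 18 measured genes, 13 were higher with apilimod at 3 h (72.2%, against 5.01% of all genes) and 17 at 7 h (94.4%, against 8.89%), with none lower. At 22 h 3 were higher (16.7%, against 27.7%) and 7 lower (38.9%, against 14.2%). The median of the list was 1.01, 1.38 and -0.13. At 22 h between 7 and 10 of the 18 were lower and 1 to 3 higher over the deposited values, the other scalings and the other controls. Hmgcs1, which makes the precursor of mevalonate, read 2666, 3009 and 513 with apilimod and 649, 1203 and 1133 with API09. Its apilimod arrays were above the API09 arrays at 3 and 7 h and below at 22 h, with differences of 2.01 ± 0.11, 1.31 ± 0.10 and -1.12 ± 0.08, and the change from 3 h to 22 h was -3.13 ± 0.12 (limma, adjusted p = 1.13e-05). Idi1, isopentenyl diphosphate isomerase, read 2043, 3652 and 340.3 and 1123, 1253 and 962 (0.85 ± 0.14, 1.53 ± 0.14 and -1.46 ± 0.12).

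Pmvk, Fdft1, Sqle, Cyp51 and Msmo1 of the same pathway also turned, with Fdft1, squalene synthase, at 1.37, 1.49 and -0.61 and Msmo1, a sterol oxidase, at 1.16, 1.05 and -0.69. Rnf145, a ubiquitin ligase of the endoplasmic reticulum linked to sterol control, followed the same course at 0.61 ± 0.12, 1.93 ± 0.12 and -1.38 ± 0.08. Insig1, which holds SREBP back when sterol is ample, was the 1 gene of the list held in the deposited values (1.74 ± 0.13, 1.55 ± 0.14 and 0.93 ± 0.11). Mvd (1.77, 2.12 and 0.07), Dhcr7 (1.13, 1.67 and -0.03) and Sc5d (1.08, 1.34 and 0.10) were higher at 3 and 7 h and not called at 22 h. The promoter of Hmgcs1 holds the motif TCACNCCAC, a form of the sterol regulatory element (SRE), in capitals here and shown because this gene turned.
Hmgcs1: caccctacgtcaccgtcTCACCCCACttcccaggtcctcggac
The stretch lies at chr13:119690197-119690239 on the plus strand (RefSeq, GRCm38.p6). The motif, searched on both strands, stood in 3.67% of the promoters of genes that turned from higher to lower and in 1.19% of those of all genes tested. Of the 8 matched genes of sterol and fatty acid synthesis that turned, Hmgcs1 was the 1 gene with it, and the other 3 genes with it that turned from higher to lower were Brd1, Mapk6 and Tank.

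Fatty acid synthesis genes were mostly called higher first at 7 h. Of 12 measured genes 1, 9 and 3 were higher at 3, 7 and 22 h and 0, 0 and 7 lower. The shares higher were 8.33%, 75% and 25%, against 5.01%, 8.89% and 27.7% of all genes. At 22 h 58.3% were lower, against 14.2%. Acaca, Acly, Fasn, Scd1 and Scd2 turned. Fasn, fatty acid synthase, read 975, 1309 and 109 with apilimod and 551, 453 and 212 with API09 (0.81 ± 0.15, 1.50 ± 0.12 and -0.87 ± 0.11). The apilimod arm was the higher at 3 and 7 h and the lower at 22 h. Lpcat1, which adds acyl chains to lysophospholipids, ran from 1.83 ± 0.11 to -1.02 ± 0.08, with 3 of 4 probe sets of the called sign. The cholesterol exporters Abca1 (-1.03, -3.13 and 0.08) and Abcg1 (-0.54, -2.40 and -0.40), targets of the oxysterol receptor LXR, had their lowest difference at 7 h; Abcg1 was held lower (1 of 2 probe sets of the called sign), and Abca1 was not called at 22 h (95% interval -0.22 to 0.39).

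Among interferon-stimulated genes the calls were mostly lower at 3 and 7 h and higher at 22 h, and 8 of 20 turned in that order. Of the 20 measured genes 0, 1 and 12 were higher with apilimod at 3, 7 and 22 h and 9, 11 and 1 lower. The shares higher were 0%, 5% and 60%, against 5.01%, 8.89% and 27.7% of all genes. The shares lower were 45%, 55% and 5%, against 3.79%, 8.1% and 14.2%. The list's median was -0.55, -0.61 and 0.55. The 11 or 12 higher and 1 lower at 22 h were found under every scaling and control tried. The 8 that turned were Ifit1, Ifit2, Mx2, Oas2, Oasl2, Usp18, Ifih1 and Cxcl10, and none of the 20 was held. Ifit1, an inhibitor of translation of foreign RNA, read 277, 469.5 and 127 with apilimod and 1444, 1612 and 42.4 with API09. Both arms declined after 7 h, the API09 arm much further, so that the apilimod arm was the lower at 3 and 7 h and the higher at 22 h. The differences were -2.32 ± 0.20, -1.75 ± 0.20 and 1.29 ± 0.07, a change of 3.61 ± 0.11 from 3 h to 22 h (limma, adjusted p = 3.62e-06).

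Ifit2 read 231, 519 and 337 and 582, 752 and 95.5 (-1.28 ± 0.23, -0.52 ± 0.24 and 1.66 ± 0.15), and the chemokine gene Cxcl10 read 388, 247 and 123 and 1439, 768 and 52.0 (-1.85 ± 0.14, -1.58 ± 0.12 and 1.03 ± 0.10). In both genes the API09 arm fell below the apilimod arm by 22 h. Rsad2, the antiviral enzyme viperin, was not called at 3 h (-0.15 ± 0.19) and was higher at 7 h (0.90 ± 0.17) and 22 h (2.88 ± 0.16). Ifit3 was lower at 3 h (-2.27 ± 0.18) and 7 h (-2.11 ± 0.17) and not called at 22 h (0.56 ± 0.19). Ifnb1, the interferon beta gene, read 18.5, 14.7 and 15.4 with apilimod and 34.9, 30.6 and 17.1 with API09, dim on all 6 arrays, and was lower at 3 h (-0.56 ± 0.15) and 7 h (-0.60 ± 0.11).

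Other genes took the same course of lower first and higher at 22 h. Il15, a cytokine that sustains natural killer and memory T cells, read 41.6, 34.3 and 154 with apilimod and 141, 77.8 and 53.4 with API09 (-1.45 ± 0.18, -0.90 ± 0.18 and 1.30 ± 0.08). Its apilimod arm rose late while the API09 arm declined from 3 h. Clec7a, the beta-glucan receptor dectin-1, read 537, 287 and 1362 and 733, 782 and 540.3 (-0.44 ± 0.13, -1.39 ± 0.12 and 1.31 ± 0.09). Cd83, a surface marker of activated antigen-presenting cells, differed by -0.16 ± 0.17, -1.13 ± 0.17 and 1.96 ± 0.11, Havcr2, the receptor TIM-3, by -1.02 ± 0.13, -0.43 ± 0.12 and 1.40 ± 0.08 and the inducible heat shock gene Hspa1b by -3.39 ± 0.16, -1.58 ± 0.13 and 1.08 ± 0.16. Hspa1b was the 1 gene of 10 measured heat shock genes that turned.

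**Figure D3:**
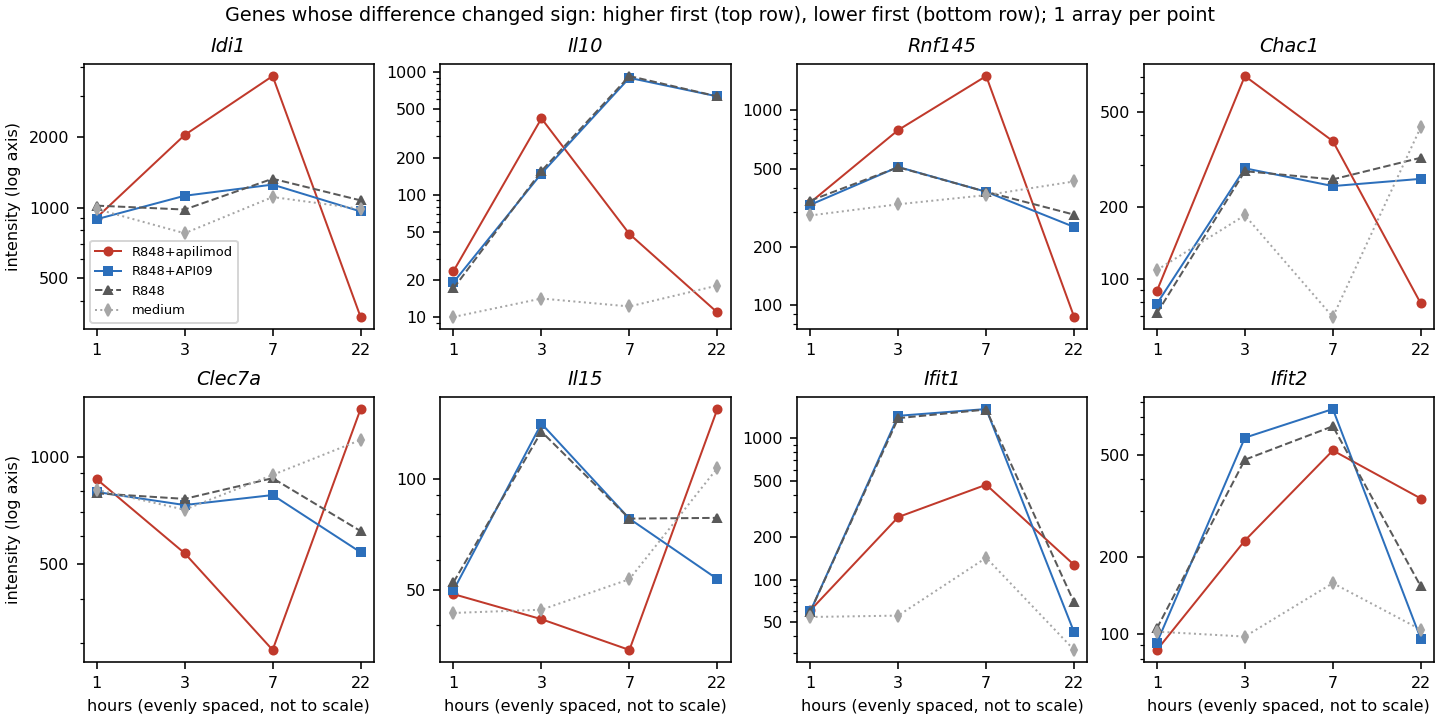
Intensity (log axes) of 4 genes that were higher first and 4 that were lower first with apilimod, against hours, 1 array per point, with arms coloured as R848+apilimod (red), R848+API09 (blue), R848 (dark grey, dashed) and medium (light grey, dotted). The red and blue lines cross in each panel; Il10 reads 420.1 with apilimod and 149 with API09 at 3 h and 11.0 and 635 at 22 h.

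Il10, an anti-inflammatory cytokine gene, had the largest change from 3 h to 22 h among the turned genes named here. It read 420.1, 47.9 and 11.0 with apilimod and 149, 900.1 and 635 with API09. The apilimod arm was the higher at 3 h and the lower at 7 and 22 h. Medium read 14.2, 12.3 and 18.2, so Il10 with apilimod was still above medium at 7 h. At 22 h apilimod (11.0) lay under the filter level (18.1) and medium close to it. With 1 array each, these 2 dim values are not told apart. Its differences were 1.40 ± 0.11, -3.84 ± 0.11 and -4.59 ± 0.08, and the change was -5.24 ± 0.16 from 3 h to 7 h and -5.99 ± 0.12 from 3 h to 22 h (limma, adjusted p = 4.18e-07 for the latter). Ccr1, a chemokine receptor, also turned by 7 h (1.05 ± 0.25, -2.92 ± 0.25 and -1.05 ± 0.08). Chac1, which degrades glutathione (1.23 ± 0.18, 0.59 ± 0.18 and -1.55 ± 0.14), and Fam102a (0.94 ± 0.13, 0.43 ± 0.13 and -0.98 ± 0.10) turned by 22 h.

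Cytokine genes did not move as a group. Of 17 measured inflammatory cytokines, 4, 3 and 3 were higher and 7, 10 and 6 lower at 3, 7 and 22 h. The shares higher were 23.5%, 17.6% and 17.6%, against 5.01%, 8.89% and 27.7% of all genes. The shares lower were 41.2%, 58.8% and 35.3%, against 3.79%, 8.1% and 14.2%. Il1b, Il6 and Ebi3 were held lower, Osm was held higher (0.85, 1.30 and 1.10), and Il10 and Il15 turned. Il6 read 13.3, 43.9 and 105 with apilimod and 65.8, 291 and 214 with API09 (-1.48 ± 0.13, -2.36 ± 0.10 and -0.92 ± 0.11), and Ebi3, a subunit shared by IL-27 and IL-35, read 409, 567 and 958 and 619, 1624 and 1475 (-0.58 ± 0.13, -1.49 ± 0.12 and -0.61 ± 0.09). In both genes the apilimod arm was the lower at each hour. Il1a was lower at 3 h (-4.19 ± 0.22) and 7 h (-2.96 ± 0.21) and not called at 22 h (0.29 ± 0.20, 95% interval -0.15 to 0.73).

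Il12b, the p40 chain of both IL-12 and IL-23, read 9.21, 11.0 and 11.4 with apilimod and 33.8, 32.4 and 11.6 with API09. It was lower with apilimod at 3 h (-0.98 ± 0.15) and 7 h (-0.84 ± 0.10), when the apilimod arrays were under the filter level, and at 22 h both arms were under it. Il23a, the other subunit of IL-23, was not called at 3 and 7 h and was higher at 22 h (0.65 ± 0.10). Tnf read 7408, 8027 and 839 and 7328, 3529 and 771. No difference in Tnf was called at 3 h (0.02 ± 0.14, 95% interval -0.29 to 0.33) or at 22 h (0.12 ± 0.09, 95% interval -0.09 to 0.32), and apilimod was higher at 7 h (1.18 ± 0.14).

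Among 12 measured chemokines 0, 2 and 5 were higher and 4, 5 and 3 lower. The shares higher were 0%, 16.7% and 41.7%, against 5.01%, 8.89% and 27.7% of all genes. The shares lower were 33.3%, 41.7% and 25%, against 3.79%, 8.1% and 14.2%. Ccl5 read 692, 709 and 713 with apilimod, a flat course, and 4724, 6037 and 1834 with API09 (-2.74 ± 0.12, -3.06 ± 0.11 and -1.34 ± 0.10). Ccl4 (-0.89 ± 0.13, -0.71 ± 0.13 and -1.19 ± 0.11) and Ccl9 (-0.46, -0.64 and -0.88) were also held lower. The neutrophil-attracting Cxcl2 was higher at 7 h (1.30 ± 0.18) and 22 h (0.69 ± 0.17). Of 13 NF-kB subunits and feedback inhibitors, Tnfaip3, which ends NF-kB signalling, was held higher (0.95 ± 0.17, 1.52 ± 0.16 and 0.74 ± 0.14). The nuclear regulators Nfkbiz (-0.49 ± 0.11, -1.10 ± 0.11 and -1.45 ± 0.08) and Bcl3 (-0.50 ± 0.12, -2.73 ± 0.12 and -1.01 ± 0.08) were held lower. The NF-kB motif GGGANTTTC, searched on both strands, stood in 4.08% of promoters of genes held lower, where 5 genes had it, in 0.282% of those of genes held higher and in 1.01% of those of all genes tested. Among the 5, Ms4a6b and Ms4a6c carry the same stretch letter for letter, so they are not separate instances. AP-1 (TGAGTCA), CRE (TGACGTCA) and C/EBP-ATF (TGATGCAA) were also among the 7 motifs searched. They stood in 7.48%, 4.76% and 0.68% of promoters of genes held lower and in 4.51%, 2.54% and 1.41% of those held higher. Over all genes tested the shares were 3.79%, 2.94% and 0.6%. C/EBP-ATF stood in 2.75% of promoters of genes that turned from higher to lower (3 promoters). The stretch of Il6 is shown because that gene was held lower, with the NF-kB motif in capitals.
Il6: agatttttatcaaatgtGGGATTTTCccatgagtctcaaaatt
It lies at chr5:30013053-30013095 on the plus strand (RefSeq, GRCm38.p6).

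Of 14 MAP kinase phosphatases and feedback inhibitors 2, 1 and 3 were higher and 6, 10 and 5 lower at 3, 7 and 22 h. The shares higher were 14.3%, 7.14% and 21.4%, against 5.01%, 8.89% and 27.7% of all genes. The shares lower were 42.9%, 71.4% and 35.7%, against 3.79%, 8.1% and 14.2%. The list's median was -0.11, -0.95 and -0.15. Dusp2, a phosphatase of nuclear MAP kinases, read 163, 97.2 and 46.4 with apilimod and 496, 933 and 349 with API09 (-1.52 ± 0.13, -3.07 ± 0.13 and -2.55 ± 0.09). Zfp36, which destabilises cytokine mRNAs, read 551, 551 and 722 and 1084, 3750.3 and 2205 (-0.96 ± 0.12, -2.73 ± 0.12 and -1.59 ± 0.10). Socs3, an inhibitor of cytokine receptor signalling, read 3109.5, 2256 and 737 and 5062, 7201 and 5310.5 (-0.70 ± 0.12, -1.67 ± 0.12 and -2.82 ± 0.10), and its difference widened with each hour. Dusp6 was held lower as well (-1.45, -2.63 and -0.51), and Dusp4 was held higher (1.33 ± 0.16, 2.10 ± 0.15 and 2.24 ± 0.10).

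Of 17 immediate-early transcription factors 2, 4 and 5 were higher and 9, 9 and 4 lower. The shares higher were 11.8%, 23.5% and 29.4%, against 5.01%, 8.89% and 27.7% of all genes, so near that share at 22 h. The shares lower were 52.9%, 52.9% and 23.5%, against 3.79%, 8.1% and 14.2%. Egr1 (-1.12 ± 0.14, -1.36 ± 0.14 and -0.87 ± 0.11) and Ier2 (-1.37 ± 0.20, -1.83 ± 0.20 and -0.46 ± 0.09) were held lower, and the stress-induced factors Atf3 (1.52 ± 0.17, 2.28 ± 0.17 and 0.86 ± 0.16) and Maff (1.60 ± 0.13, 1.94 ± 0.14 and 0.62 ± 0.13) held higher. Fos, Fosl2 and Myc turned from lower to higher (Fos at -1.81, -2.14 and 0.86), while Ier3 turned from lower to higher by 7 h (-0.66, 0.75 and -0.22). With R848 alone or both arms as control, 2 of the 17 turned instead of 4.

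Genes of the amino acid response, which the factor ATF4 controls, were higher in 12 of 20 at 3 h and 17 of 20 at 7 h with none lower. These are 60% and 85%, against 5.01% and 8.89% of all genes. At 22 h 5 were higher (25%, against 27.7%) and 5 lower (25%, against 14.2%). The list's median was 0.46, 0.52 and -0.05. Ddit3, the factor CHOP, read 412, 585 and 4105 with apilimod and 163, 226 and 1737 with API09 (1.25 ± 0.13, 1.31 ± 0.15 and 1.23 ± 0.12). Both arms rose to 22 h and the difference kept its size. Aars and Sars, 2 tRNA synthetase genes, were held too, and Chac1, Psat1, Psph and Shmt2 turned. Ddit4, an inhibitor of mTORC1, read 241, 418 and 301 with apilimod and 48.2, 127 and 295 with API09. It was higher at 3 h and at 7 h (1.61 ± 0.20) and not called at 22 h (95% interval -0.37 to 0.43), and Trib3, a pseudokinase induced by ATF4, had the same course (1.20, 1.05 and 0.24). Of 16 genes of the unfolded protein response, 1, 2 and 8 were higher (6.25%, 12.5% and 50%, against 5.01%, 8.89% and 27.7% of all genes) and 0, 0 and 2 lower. The counts at 22 h were 4 to 8 higher and 2 to 4 lower over the scalings and controls. Dnajb9 alone was held (0.58 ± 0.11, 0.46 ± 0.10 and 0.68 ± 0.08).

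Proliferation genes differed late. Of 21 measured DNA replication genes 2, 1 and 0 were higher and 0, 2 and 19 lower at 3, 7 and 22 h. Of 21 mitosis genes 0, 3 and 0 were higher and 0, 0 and 21 lower. At 22 h 90.5% and 100% of these lists were lower, against 14.2% of all genes. The few calls at 3 and 7 h were at shares of 0% to 14.3%, against 3.79% to 8.89% of all genes. The medians at 22 h were -1.02 and -1.49, against 0.06 over all genes tested. Ccnb2, a cyclin of mitosis, read 1361, 902 and 222 with apilimod and 1370.0, 842 and 899 with API09 (-0.01 ± 0.12, 0.10 ± 0.12 and -1.94 ± 0.08), and Kif20a, a kinesin of cell division, read 478, 314 and 52.1 and 471, 352 and 244 (0.02 ± 0.12, -0.16 ± 0.13 and -1.93 ± 0.10). Neither was called at 3 or 7 h, and both were at 22 h. Rrm2, which makes deoxynucleotides, differed by -0.01 ± 0.12, -0.29 ± 0.10 and -1.77 ± 0.09, and Mcm6, a subunit of the replicative helicase, by 0.02 ± 0.13, -0.54 ± 0.13 and -1.43 ± 0.08. None of the 42 was held, and Bub1, Tpx2 and Cenpe were also called higher at 7 h and so turned (2 to 6 mitosis genes over the scalings and controls). The counts at 22 h were 19 or 20 of 21 and 21 of 21 over the scalings and controls tried.

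**Figure D4:**
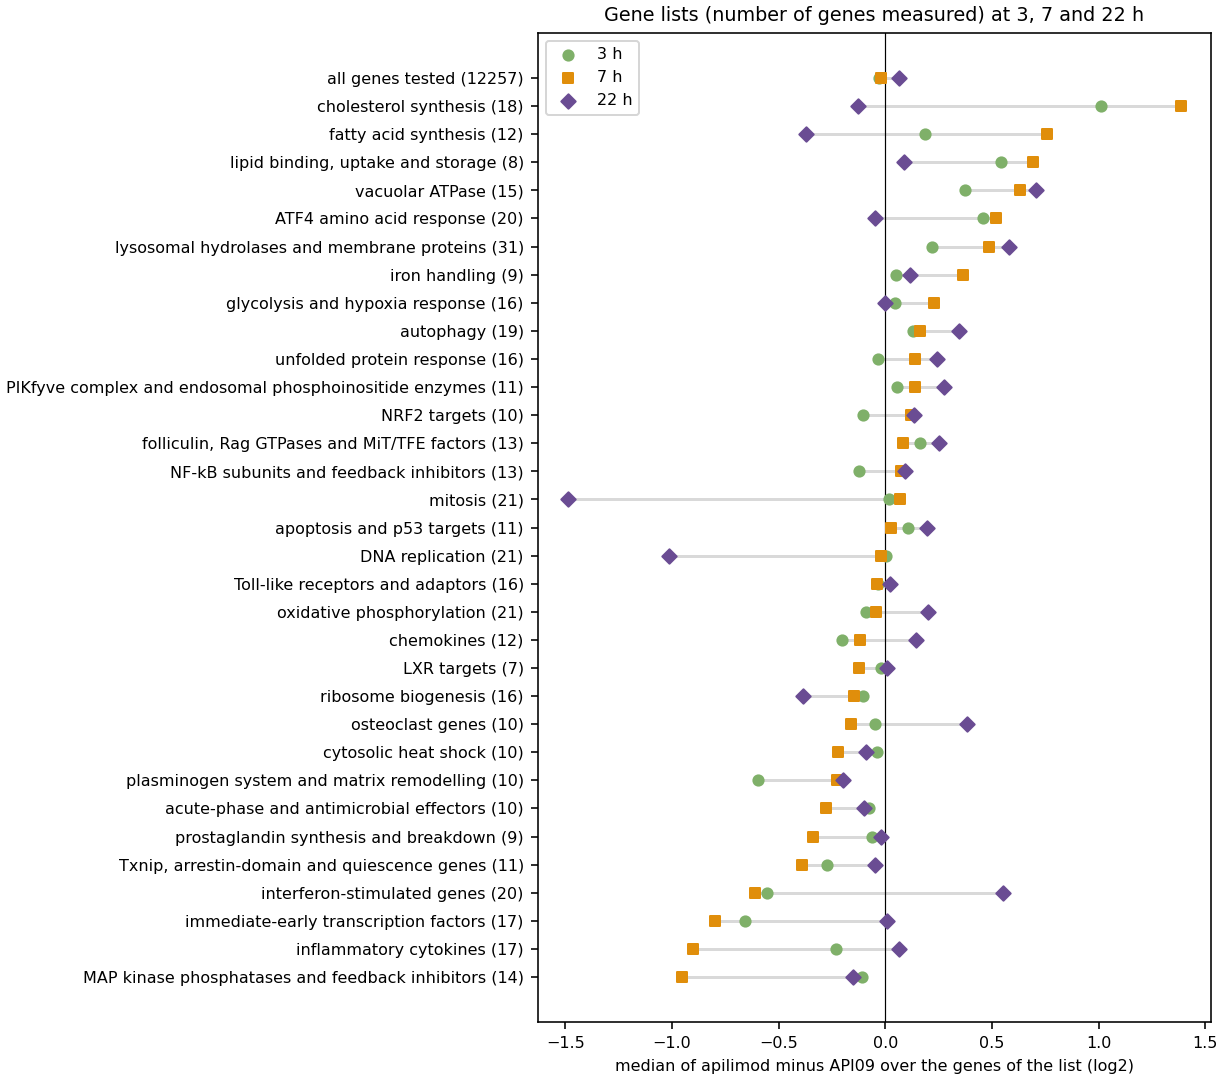
Median difference between apilimod and API09 (log2 scale) over the genes of each list at 3 h (circles), 7 h (squares) and 22 h (diamonds), with the number of genes measured in brackets and all 12257 genes tested at the top. The vacuolar ATPase stays above 0 at each hour (0.37, 0.63 and 0.71), cholesterol synthesis crosses from 1.38 at 7 h to -0.13 at 22 h, and interferon-stimulated genes cross from -0.61 to 0.55.

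R848 minus medium of an hour did not enter the differences that define held and turned genes, although R848 arrays of other hours supplied part of their spread. The API09 arm carries R848 as well and lay close to R848 alone. Choosing genes with a high API09 arm therefore favours genes that R848 raised, and the values below are not independent of that choice. Serpinb2, Mmp9 and Shisa3, all held lower, were above the filter level on stimulated arrays alone. In genes held lower, R848 minus medium had a median of 0.55, 0.83 and 0.54 at 3, 7 and 22 h, against -0.03, -0.04 and -0.01 over all genes tested. It was at least 1 in 43, 63 and 48 of the 142, or 30.3%, 44.4% and 33.8%, against 2.08%, 3.09% and 2.99% of all genes. In genes held higher the median was -0.05, 0.03 and 0.04, and it was at least 1 in 24, 31 and 28 of the 326 (7.36%, 9.51% and 8.59%). Among genes that turned from lower to higher it was at least 1 in 32, 37 and 15 of 165 (19.4%, 22.4% and 9.09%). These values rest on 1 array per arm and hour and are given without a test.

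Genes that were not called were also counted. At no hour were 6176 of the 12257 genes called (50.4%). In 3602 of these (58.3%) all 3 of the 95% intervals lay within 0.5 on either side of 0, and in 6151 (99.6%) within 1. For the rest of the uncalled genes a difference of that size at some hour is not bounded by these arrays.

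The number of genes called at 22 h and their split by direction depended on the scaling and the control. Both scalings moved the split given above. With R848 alone in the place of API09, 2007 genes were higher and 2215 lower, and with both arms as controls 2193 and 1575. The median difference at 22 h was 0.06 as deposited, -0.02 after quantile normalization and -0.09 after centring, a shift of -0.16, while the shifts at 3 and 7 h were at most 0.01. Held genes numbered 344 higher and 204 lower after quantile normalization, of which 288 and 138 were held in the deposited values, and 271 and 176 with R848 alone as control, of which 252 and 134. R848 alone as control takes the dim R848+API09 array out of the 22 h difference, and with it calls at 22 h were 47.5% higher, against 66.1% as deposited. The change of the difference was then called up in 1342 genes and down in 1429 from 3 h to 22 h, and in 1298 and 1466 from 7 h to 22 h.

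**Figure D5:**
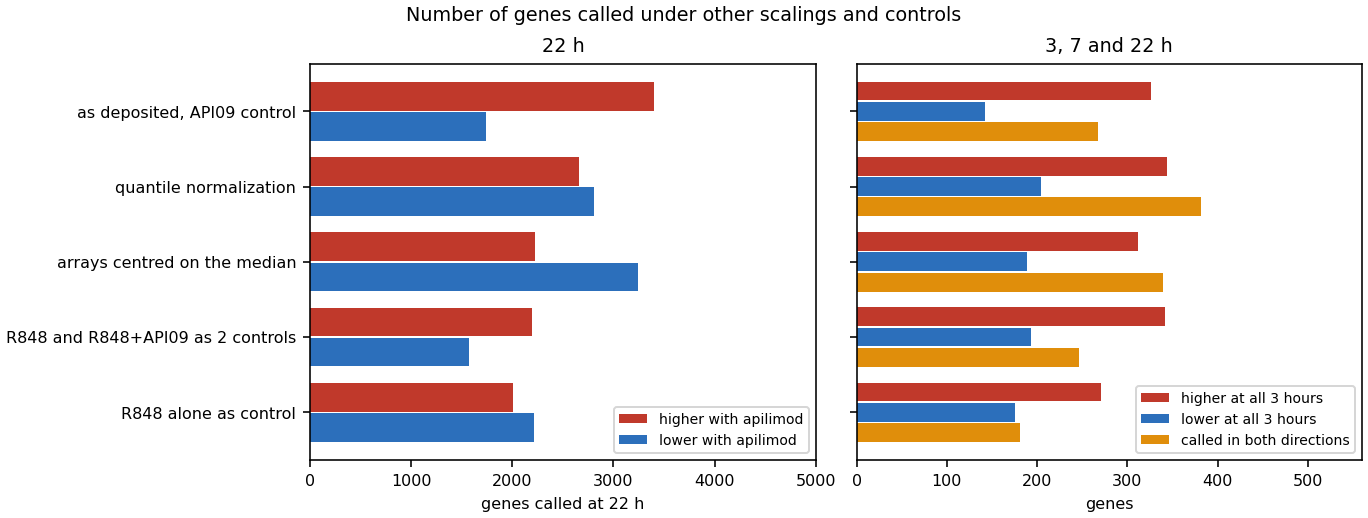
Number of genes called at 22 h by direction (left) and number held or called in both directions over 3, 7 and 22 h (right), for the deposited values with API09 as control and for 4 other settings. The 22 h split runs from 3396 higher and 1739 lower to 2227 and 3239 after centring, while genes held higher run from 271 to 344.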

How the data were processed

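Per the labels' protocols, RNA was amplified with a NuGEN Ovation kit and run on 1-colour Affymetrix arrays. Each deposited value is a linear intensity for a probe set on an array, and was taken from the values to be summarised and normalized by the authors already. Limma is listed, without a role, in the submitters' processing notes; how background was corrected and arrays normalized is not given in the sources used here. The number of arrays limits the precision.

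Probe sets brighter than the overall median (18.1) on 3 or more of 18 arrays were kept (21361 with 1 symbol), and each gene was represented by its brightest, which gave 12257 genes. Symbols came from the platform annotation, updated through Entrez identifiers for 34754 of 34958 probe sets with 1 symbol. Tests used limma 3.58.1 in R 4.3.3 on log2(intensity + 16), with moderated variances, Benjamini-Hochberg adjustment and a threshold of 0.05, two-sided. The fit over 3 pairs used 6 arrays with hour as a block. In the fits within an hour, R848 alone of that hour was left out, and R848 and R848+API09 of each other hour shared a mean. Changes between hours were adjusted over all genes and the 3 pairs of hours together.

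Genes were named by a rule: the 12 held genes of each direction with the largest smallest difference, the 8 turned genes of each order with the widest turn, the 5 largest of each sign in the fit over pairs, up to 4 of each list by mean difference, and a set of fixed genes. Other members of a list that held or turned, the 7 mixed genes and the lists described were chosen after their values were seen. Members, lists and motifs were chosen with earlier results of these data known. In simulated data, 94%, 92% and 94% of genes changed by 1 were recovered at 3, 7 and 22 h, and 32%, 24% and 26% of those changed by 0.5. Alternatives in scaling, filter, pseudocount, probe set, spread and control were tried. The test at 1 h was added after the data were seen. Genes under the filter were not analysed here.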

Additional observations from a re-analysis of the deposited data

Results flagged for a closer look

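The difference between the compounds itself changed between hours in many genes, tested as the difference of the within-hour differences (limma, adjusted p under 0.05 over all genes and 3 pairs of hours). It changed in 593 genes from 3 h to 7 h (4.84%), in 3972 from 3 h to 22 h (32.4%) and in 4063 from 7 h to 22 h (33.1%). The R848+API09 array at 22 h, which was dimmer at its upper quartile than the others, is part of both comparisons with 22 h. With R848 alone as control, which leaves that array out of the difference, the change was called in 2771 genes from 3 h to 22 h (1342 up, 1429 down, against 2679 and 1293) and in 2764 from 7 h to 22 h (1298 and 1466, against 2733 and 1330).

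Among genes that were higher with apilimod first, the change from 3 h to 22 h was -2.31 in Idi1, -5.99 in Il10, -1.99 in Rnf145, -2.78 in Chac1, -3.13 in Hmgcs1, -2.10 in Ccr1, -2.85 in Lpcat1 and -1.92 in Fam102a. Among genes that were lower first, it was 1.75 in Clec7a, 2.74 in Il15, 3.61 in Ifit1, 2.94 in Ifit2, 4.47 in Hspa1b, 2.88 in Cxcl10 and 2.42 in Havcr2. In Cd83 the change from 7 h to 22 h was 3.09. These genes were named for the width of their turn, so large changes were built into the choice.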

How the results depend on the processing

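The 22 genes called over the 3 pairs were the least stable count. It was 0 without the filter, 13 with a filter at the 75th percentile, 0 with a pseudocount of 64, 0 with R848 alone as control, 0 with the 1 h pair added, 0 with all 18 arrays in the fit and 0 with no replicate block (hour not in the fit), and 0 to 163 when each pair was left out in turn. Pairing is by hour, and replicate numbers exist for medium at 0 h alone. With the spread at 3 and 7 h taken without the R848+API09 array of 22 h, calls numbered 1903 at 3 h and 3385 at 7 h, genes held lower 220 and genes turned 618. Asking for a difference of at least 1 left 263, 565 and 689 genes at 3, 7 and 22 h, 65 held higher, 21 held lower and 15 turned. Genes whose 3 differences shared a sign numbered 2967 with the stricter filter, which tests fewer genes. The other totals over both directions stayed within 1.5 times under the alternatives run. Counts in 1 direction moved further. At 22 h genes higher fell from 3396 to 2007 with R848 alone and genes lower rose from 1739 to 3239 after centring. Changes up from 3 h to 22 h numbered 2679 as deposited and 1342 with R848 alone, and changes down 1293 and, after centring, 2191. From 7 h to 22 h the same counts were 2733 and 1298 up and 1330 and 2243 down. Changes up from 3 h to 7 h were 275 as deposited and 420 after quantile normalization. With R848 alone as control, 3 named values changed sign: Btg2 at 22 h (-0.040), Cfb at 7 h (0.024) and Fads2 at 22 h (-0.087), and 349 of the 372 called values of named genes kept their direction and stayed called. The cause of these changes was not tested. Dim genes near the filter level are limited by the signal over background, which the deposited values do not give.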

Other observations

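Lists outside the comparison above held mostly late or mixed differences. Of 10 acute-phase and antimicrobial genes, none was called at 3 h. At 7 and 22 h 1 and 2 were higher (10% and 20%, against 8.89% and 27.7% of all genes). At each of those hours 3 were lower (30% each, against 8.1% and 14.2%). S100a8, a calcium-binding protein of neutrophils and macrophages, read 32.5, 81.7 and 133 with apilimod and 41.5, 991 and 8446 with API09 (-0.25 ± 0.15, -3.37 ± 0.13 and -5.83 ± 0.11). Lcn2, an iron-sequestering protein, differed by -0.23 ± 0.15, -3.19 ± 0.15 and -1.56 ± 0.13, and the alarmin gene Il33 by 0.05 ± 0.13, -3.36 ± 0.12 and -5.79 ± 0.08. In these 3 genes the arms were close at 3 h, and API09 was far above apilimod at 7 and 22 h. Of 21 oxidative phosphorylation genes, 0, 0 and 6 were higher at 3, 7 and 22 h, a share at 22 h (28.6%) near that of all genes (27.7%), with a median of 0.20 at 22 h as deposited, 0.13 after quantile normalization and 0.04 after centring. Of 16 ribosome biogenesis genes 10 were lower at 22 h (62.5%, against 14.2% of all genes, and 11 after centring), among them Dkc1 (-0.97 ± 0.16) and Nop56 (-0.67 ± 0.07).

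Of 11 macrophage markers tested, 0, 1 and 2 were higher with apilimod and 1, 6 and 3 lower at 3, 7 and 22 h (54.5% lower at 7 h, against 8.1% of all genes), with a median of -0.44 at 7 h. Itgam, the integrin subunit CD11b, was held lower (-0.55 ± 0.12, -2.26 ± 0.11 and -2.01 ± 0.10) and the Fc receptor gene Fcgr1 was lower at 7 h (-3.41 ± 0.12) and 22 h (-1.68 ± 0.14), while the lysosomal marker Cd68 was higher at 7 h (0.49 ± 0.13) and 22 h (0.90 ± 0.07). Of 11 measured genes of apoptosis and p53 targets, 2, 3 and 5 were higher and 3, 3 and 2 lower. The shares higher were 18.2%, 27.3% and 45.5%, against 5.01%, 8.89% and 27.7% of all genes. The shares lower were 27.3%, 27.3% and 18.2%, against 3.79%, 8.1% and 14.2%. Fas (-2.05 ± 0.13, -1.58 ± 0.13 and -0.60 ± 0.07) and Bcl2l11 (-1.32 ± 0.14, -1.92 ± 0.13 and -0.47 ± 0.08, with 3 of 5 probe sets of the called sign) were held lower. Pmaip1 was held higher in the deposited values. Hpgds, a prostaglandin D synthase, was held higher (1.58 ± 0.17, 1.85 ± 0.16 and 1.15 ± 0.10), as was the iron transporter gene Slc11a2 (0.83 ± 0.12, 0.92 ± 0.13 and 1.05 ± 0.09).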
